A study of Arabidopsis halleri and Arabidopsis lyrata subsp. petraea with 24 samples.

Results

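PDF1.2B, PDF1.4 and PDF2.1 are plant defensin genes, and their transcript levels were followed over all 24 ATH1 arrays of a study of zinc tolerance and accumulation in Arabidopsis halleri. They were chosen by name as defensins, but with earlier results of these data known, so the choice was not blind to their values. Each has 1 probe set, so that they are 3 of the 22810 probe sets on the array. A. halleri, a zinc-tolerant species that stores zinc in its leaves, was measured beside its relative Arabidopsis lyrata subsp. petraea, called A. petraea here. Rosette leaves and whole root systems were taken from controls on full mineral medium and from plants that received 25 µM zinc, and how much zinc the control medium held is not stated in the labels. No transgene, mutation or plant age is given in the labels. The stage is 10 to 16 rosette leaves on every array but 1, A. halleri control roots number 1, whose label gives stage 1.1. Each of the 8 groups, which are each species with each organ and each zinc level, held 3 arrays, which bounds how precise any value can be. Whether a group's 3 arrays came from separate plants is not in the labels, and p-values therefore cover only the spread between arrays, which may be technical.

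Plant defensins are small, cysteine-rich secreted peptides held together by disulfide bridges, and many of them stop the growth of fungi. In A. thaliana the PDF1.2 genes are a standard marker of defence driven jointly by jasmonate and ethylene. Defensins of the PDF1 family are also linked to metals: an A. halleri PDF1 defensin raises the zinc tolerance of yeast, which is why the species were compared in each organ. PDF1.2B is 1 of several near-identical PDF1.2 copies, and the suffix of its probe set marks probes that can match other transcripts, so its signal cannot be assigned to a single copy. PDF1.4 belongs to the same family, and PDF2.1 belongs to the second defensin family. The probes were designed on A. thaliana, so a sequence difference in either species lowers a signal at an equal transcript level, and this cannot be told apart from a species difference in expression. In whole organs, fewer cells of a type and less RNA per cell cannot be told apart either.

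Values are MAS5 signals, which are intensities on a linear scale, and changes are on the log2(signal + 16) scale with the standard error (SE) from limma. The pseudocount of 16 understates changes at low signals. Every comparison is given under 2 groupings of the same arrays. The first takes the group printed in each title. The second is called the text order: the serial numbers in the titles are sorted as text (1, 10, 11 and so on), and the array at each place in that order takes the group printed at the serial number equal to its place. No label states the text order. It was inferred with results of these data known, so how well it orders the arrays is not independent evidence for it.

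Organ markers and whole-array similarity separated the groupings. The leaf markers were RCA, PSAE-1, PRK and SBPASE, which serve photosynthesis, and PYK10, EXPA7 and EXPA18 served as root markers. Which marker mean was higher matched the organ of 9 of 24 arrays as printed and of 23 of 24 in the text order. The leaf mean minus the root mean was 3.24 to 5.83 on 13 arrays and -3.89 to -0.10 on 11. The array with the highest correlation to a given array shared its species and organ in 5 of 24 cases as printed and in 22 of 24 in the text order. Only array 1 has the same group in both groupings. The exception among markers was array 24, number 2 of A. petraea high zinc roots in the text order, whose leaf markers were higher by 3.43 and which correlated best with array 5 (r = 0.92), number 2 of A. petraea control leaves. Called species differences, and some other results that rest on arrays 5 and 24, are also given without them. A printed-label fit without the arrays whose markers oppose their label was not possible, because 3 groups would keep 0 arrays.

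All 3 defensins varied widely. PDF1.2B ranged from 35.1 to 7426.7 over the 24 arrays, and its standard deviation (SD) on the log2 scale was larger than that of 99.5% of the 17107 probe sets tested. PDF1.4 ranged from 21.7 to 667.1, with a larger SD than 87.9% of probe sets. PDF2.1 ranged from 0.8 to 674.1, with a larger SD than 96.2%, and was under 16 on 15 arrays, while PDF1.2B and PDF1.4 were under 16 on 0 arrays. All 3 members passed the filter on low signals, which takes the mean over the 24 arrays. PDF2.1, with a mean of 71.59, owed this to a few high arrays, which were A. petraea roots in the text order. Its median in the text order was 185.1 in A. petraea roots, against 11.15 in A. halleri roots, 8.7 in A. petraea leaves and 1.55 in A. halleri leaves. The 3 members did not share 1 pattern: over the 24 arrays the Pearson correlation of the log2 values was 0.34 between PDF1.2B and PDF1.4, -0.37 between PDF1.2B and PDF2.1, and -0.19 between PDF1.4 and PDF2.1. These are descriptions over arrays that share organs and scaling.

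The signal of the PDF1.2B probe set followed the leaf side of the text order in both species. The probe set named PDF1.2 was at 0.7 to 21.1 over the 24 arrays, with r = 0.35 to PDF1.2B. Whether the PDF1.2B signal measures jasmonate and ethylene defence here was not tested. In A. halleri leaves the PDF1.2B signals were 6088.2, 4100.3 and 3328.4 on the control arrays and 5756, 3747.4 and 4030.1 on the high zinc arrays. In A. halleri roots they were 55.4, 35.1 and 92.9 on the control arrays and 43.6, 46.9 and 68.9 on the high zinc arrays. Leaves and roots of A. halleri therefore did not overlap, as was the case with higher leaves for 7.5% of probe sets. In A. petraea leaves the signals were 2567.7, 487.6 and 1949.6 on the control arrays and 7426.7, 2166.3 and 2146.2 on the high zinc arrays. In A. petraea roots they were 719.3, 104.3 and 77.2 on the control arrays and 244.7, 715.9 and 73.8 on the high zinc arrays. The organs of A. petraea overlapped through array 5 (487.6) and array 24 (715.9) but also through array 20, a root array with 719.3. Without arrays 5 and 24 the lowest leaf value was 1949.6 and the highest root value 719.3. In order of the group means, the 4 leaf groups lay between 12.12 and 10.42 on the log2 scale and the 4 root groups between 8.01 and 6.09. Only the step from A. petraea control leaves to A. petraea high zinc roots, 2.41, was larger than the larger SD of the groups on either side, 1.51.

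As printed, PDF1.2B had no such order. In leaves the lowest, median and highest signals were 35.1, 1119.55 and 7426.7 in A. halleri and 77.2, 480.3 and 3747.4 in A. petraea. In roots they were 55.4, 1218.6 and 4030.1 in A. halleri and 46.9, 3714.35 and 6088.2 in A. petraea. Each of these sets of 6 arrays covered more than a factor of 10. The highest group mean was that of A. petraea high zinc roots, 12.07 on the log2 scale, and the lowest that of A. halleri high zinc leaves, 6.11. Only the step above that lowest group, 1.91, exceeded the larger SD beside it, 1.49.

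**Figure D1:**
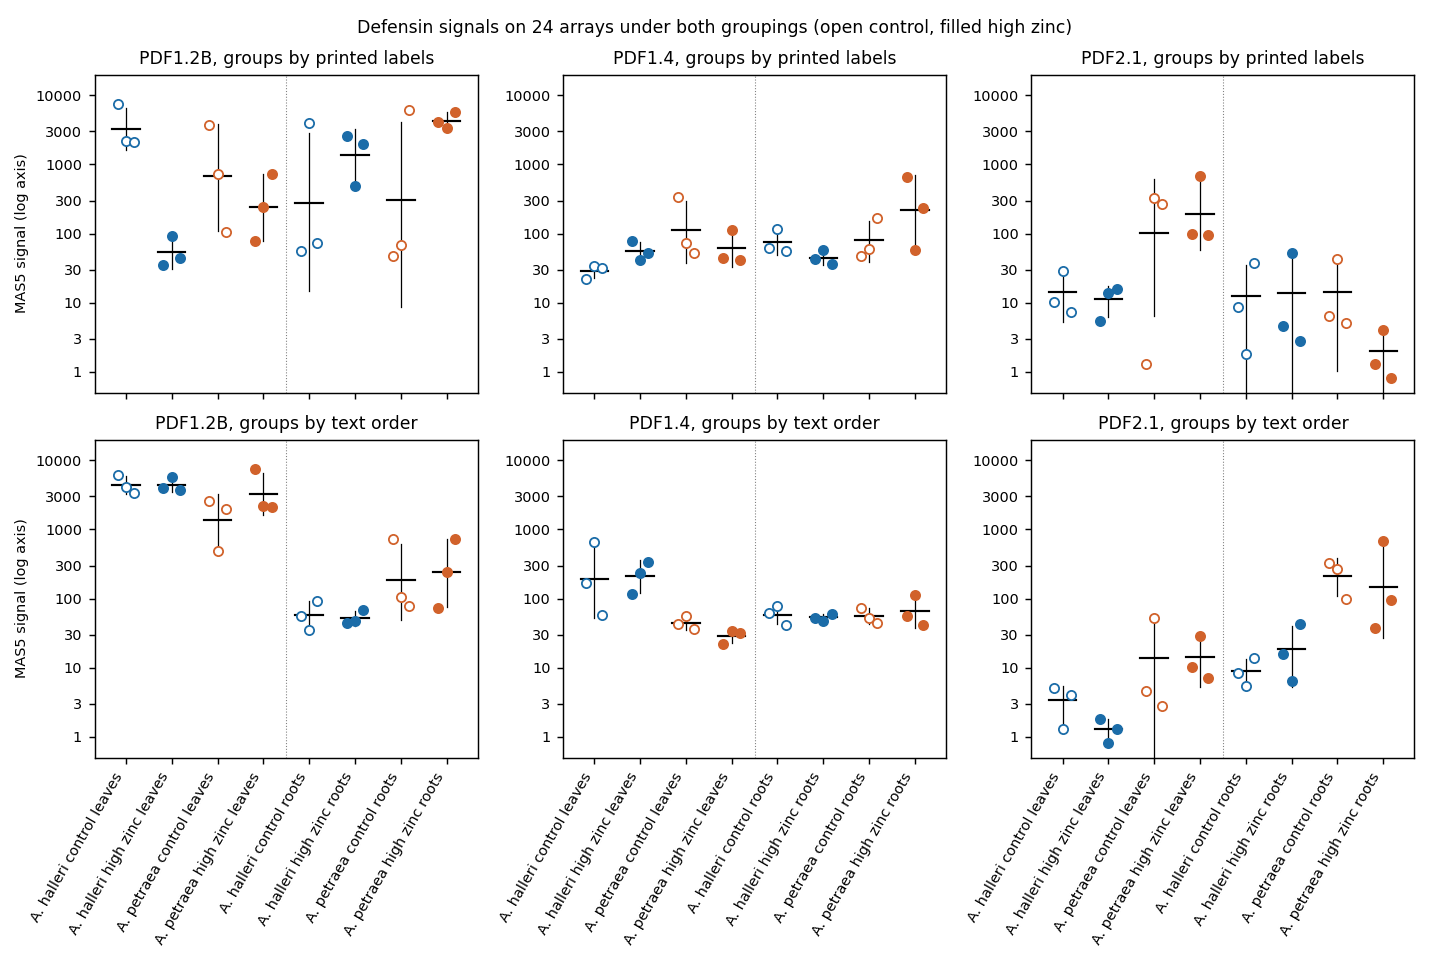
Signals of the 3 defensins on each of 24 arrays (log axis), by group as printed in the titles (top) and by the text order (bottom), with leaves left and roots right of the dotted line. Open points are control, filled points high zinc, blue is A. halleri and orange A. petraea; horizontal bars are means and vertical bars ± 1 SD (n = 3), both computed on the log2(signal + 16) scale and turned back to signal, with lower ends cut at the axis. In the text order PDF1.2B is at 487.6 to 7426.7 in leaves and 35.1 to 719.3 in roots, PDF1.4 is highest in A. halleri leaves, and PDF2.1 is highest in A. petraea roots.

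PDF1.4 had its highest group means in A. halleri leaves in the text order. Its signals in A. halleri leaves were 167.3, 667.1 and 57.8 on the control arrays and 235.7, 342.2 and 116.6 on the high zinc arrays. In A. petraea leaves they were 42.2, 56.8 and 36.5 on the control arrays and 21.7, 34.2 and 32.1 on the high zinc arrays. The species did not overlap in leaves, but only just, since the lowest A. halleri value was 57.8 and the highest A. petraea value 56.8. In roots the signals were 62.2, 76.9 and 41.4 (control) and 52.3, 47.9 and 60.6 (high zinc) in A. halleri. In A. petraea roots they were 73.8, 52.1 and 44.5 (control) and 114.3, 41.9 and 56.4 (high zinc). The root arrays of both species overlapped, and A. petraea leaves spanned 21.7 to 56.8 against 41.4 to 114.3 on the root arrays. In order, the A. halleri leaf means were 7.84 (high zinc) and 7.71 (control) on the log2 scale, the 4 root means lay between 6.35 and 6.12, and the A. petraea leaf means were 5.92 (control) and 5.49 (high zinc). The step of 1.36 below A. halleri control leaves was smaller than the SD of that group, 1.61, and only the last step, 0.43, exceeded the larger SD beside it, 0.24. As printed, the lowest, median and highest signals were 21.7, 37.8 and 76.9 in A. halleri leaves and 41.9, 62.95 and 342.2 in A. petraea leaves. In roots as printed they were 36.5, 56.6 and 116.6 in A. halleri and 47.9, 113.95 and 667.1 in A. petraea. Under the printed labels the species overlapped in both organs.

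PDF2.1 had its highest group means in A. petraea roots in the text order. Its signals there were 327, 270.5 and 99.7 on the control arrays and 674.1, 96 and 37.7 on the high zinc arrays. In A. halleri roots they were 8.5, 5.5 and 13.8 on the control arrays and 15.6, 6.4 and 43 on the high zinc arrays. The species overlapped in roots through 1 array of each, 43 in A. halleri and 37.7 in A. petraea. In leaves the signals were 5.1, 1.3 and 4 (control) and 0.8, 1.3 and 1.8 (high zinc) in A. halleri. In A. petraea leaves they were 4.6, 52.5 and 2.8 (control) and 10.2, 28.7 and 7.2 (high zinc). All 6 leaf arrays of A. halleri were under the pseudocount and below every A. halleri root array, as with lower leaves for 13.7% of probe sets. This was only just so, at 5.1 in leaves against 5.5 in roots, and both values lie near 0 signal. The highest A. petraea leaf value, 52.5, was array 5, and without it and array 24 the leaves reached 28.7 and the roots began at 37.7. In order, the A. petraea root means were 7.81 (control) and 7.33 (high zinc), and the step of 2.21 below them to A. halleri high zinc roots exceeded the larger SD, 1.90. The other means lay between 5.12 and 4.11, close to the value that a signal of 0 would give. As printed, PDF2.1 had lowest, median and highest signals of 5.5, 12 and 28.7 in A. halleri leaves and 1.3, 185.1 and 674.1 in A. petraea leaves. In roots as printed they were 1.8, 6.55 and 52.5 in A. halleri and 0.8, 4.55 and 43 in A. petraea.

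**Figure D2:**
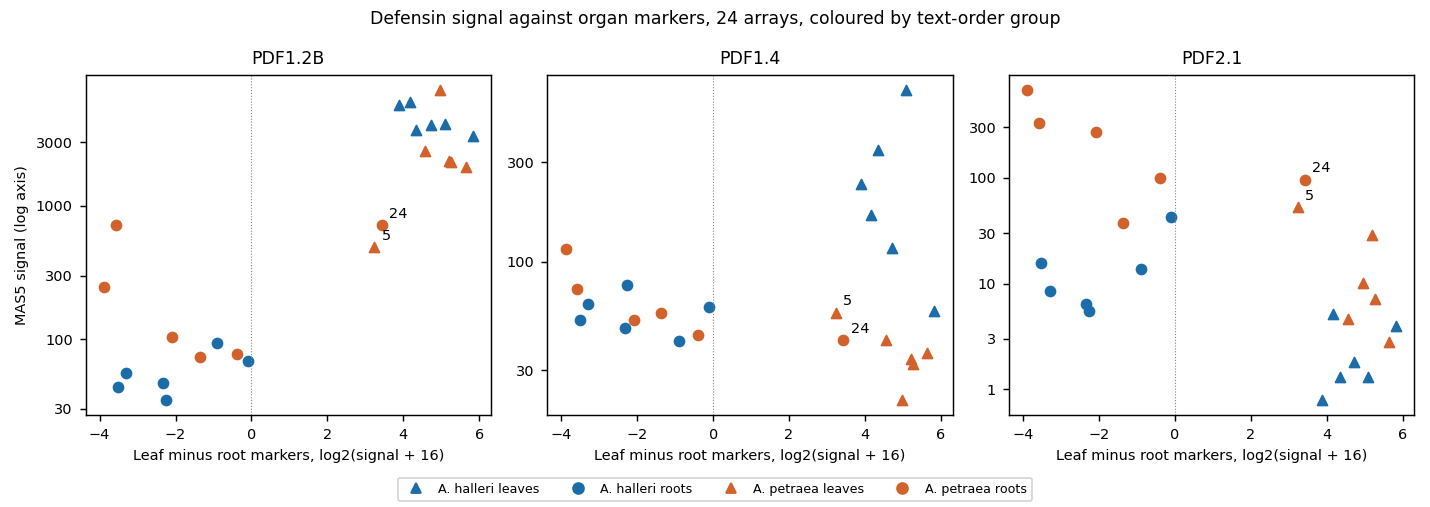
Signal of each defensin (log axis) against the mean of the leaf markers minus that of the root markers on the same array (log2 scale), for 24 arrays coloured by species and shaped by organ in the text order; arrays 5 and 24 are numbered. The markers split the arrays at 0 into 13 and 11; PDF1.2B is high on the leaf side, PDF1.4 is higher in A. halleri on that side without array overlap (57.8 against 56.8 at the edge), and PDF2.1 is mostly higher in A. petraea on the root side, with an overlap of 43 against 37.7.

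The first comparison asked whether the species differ in leaves. In the text order PDF1.4 was higher in A. halleri leaves than in A. petraea leaves by 2.07 ± 0.37 (SE, n = 6 and 6), which is 4.20-fold on the log2(signal + 16) scale, with a limma adjusted p of 0.00134. The fit took the 6 arrays of each species as independent. In A. halleri leaves PDF1.4 followed the array number at both zinc levels, as given below, so this SE and p may be too small. PDF1.4 was the only member called of the 3, where 6.23% of probe sets were called in either direction, 2.98% were called higher, and 2.05% did not overlap between species with A. halleri higher. PDF1.2B differed by 1.06 ± 0.54 (adjusted p = 0.291) and PDF2.1 by -0.71 ± 0.47 (adjusted p = 0.447), and neither passed the test. Their 95% intervals were -0.06 to 2.18 and -1.68 to 0.26. Without arrays 5 and 24 PDF1.2B differed by 0.70 ± 0.48 and PDF2.1 by -0.41 ± 0.47. All 6 A. halleri leaf signals of PDF2.1 and 4 of the 6 in A. petraea were under the pseudocount. The PDF2.1 value was -1.98 with a pseudocount of 1 and -0.27 with 64, so its interval does not bound the size of the difference. The PDF1.4 call held in 12 of 12 fits that left out 1 array, with values of 1.64 to 2.45, and in 6 of 6 other settings. The PDF1.4 value was 2.44 with a pseudocount of 1 and 1.46 with 64, so its size and fold move with the pseudocount. Without arrays 5 and 24 it was 2.14 ± 0.40 (adjusted p = 0.00269). With the replicate number as a block, 1664 probe sets were called in place of 1065, and no call of a defensin in leaves changed.

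Organ markers were not called in this leaf comparison. The difference of leaf minus root markers changed by -0.14 from A. petraea to A. halleri, 0 of 7 markers were called and none was at 0. The summed signal of the 4 leaf markers was 5143.4 to 10044.4 in A. halleri and 7807.3 to 11485.6 in A. petraea. That of the 3 root markers was 93.1 to 177.1 in A. halleri and 92.8 to 652.7 in A. petraea, with the highest on array 5.

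Under the printed labels no species difference in leaves was called for any probe set (0% of 17107 by limma, with 934 at an unadjusted p under 0.05). PDF1.4 had the opposite sign there, -0.82 ± 0.45 (adjusted p = 0.911), and PDF1.2B differed by 0.16 ± 1.11 (adjusted p = 0.995). PDF2.1 differed by -2.46 ± 0.62 (adjusted p = 0.628), and its unadjusted p ranked 19 among the 17107. Leaving out array 19, printed as A. petraea control leaves, gave -3.16 and an adjusted p of 0.0158, where the range over all settings was 0.00946 to 1. The printed leaf groups hold arrays with leaf markers and arrays with root markers, and the part of that in the spread was not tested.

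In roots the question was the same, and the member that differed was another. In the text order PDF2.1 was lower in A. halleri roots than in A. petraea roots, a change of -2.69 ± 0.47 on the log2(signal + 16) scale (n = 6 and 6, limma adjusted p = 0.00165). Of the 6 A. halleri root signals 5 were under the pseudocount, so the pseudocount sets the size of this change and no fold is given. PDF2.1 passed the filter on low signals through its A. petraea root arrays, the side that is high here. The filter and this test are therefore not independent. With no filter the change was the same and the limma adjusted p was 0.00189. As in leaves, the fit took the 6 arrays of each species as independent, although PDF2.1 in A. petraea roots followed the array number. PDF2.1 was the only member called of the 3, where 4.74% of probe sets were called in either direction and 2.29% were called lower. PDF1.4 differed by -0.09 ± 0.37 (adjusted p = 0.925), with a 95% interval of -0.86 to 0.68. PDF1.2B differed by -1.69 ± 0.54 (adjusted p = 0.073), with a 95% interval of -2.81 to -0.57, and did not pass the test. It passed with the replicate block (adjusted p = 0.0387), quantile normalization (0.0359) and array weights (0.0116). Without arrays 5 and 24 it was -1.31 ± 0.48 and did not pass (limma adjusted p = 0.136). Its A. halleri root arrays lay between 35.1 and 92.9 and its A. petraea root arrays between 73.8 and 719.3. It also passed without array 3 (adjusted p = 0.0311) and without array 22 (adjusted p = 0.0486), both A. petraea roots in the text order, and its adjusted p ranged from 0.0116 to 0.184 over all settings.

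The PDF2.1 call in roots held in 12 of 12 fits without 1 array, with values of -3.08 to -2.16, and in 6 of 6 other settings. Its size was -3.69 with a pseudocount of 1 and -1.68 with 64. Without arrays 5 and 24 it was -2.82 ± 0.47 (adjusted p = 0.00157). The summed signal of the root markers was 260.6 to 2354.6 in A. halleri roots and 664.8 to 3648.1 in A. petraea roots, and that of the leaf markers 186.7 to 316 and 120.3 to 7979.1, with the highest on array 24. The difference of leaf minus root markers changed by -0.75 from A. petraea to A. halleri, 0 of 7 markers were called and none was at 0. The part of the markers in the result was not tested.

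Under the printed labels no species difference in roots was called for any probe set (0% of 17107 by limma, with 936 at an unadjusted p under 0.05). PDF2.1 differed by 0.32 ± 0.62 (adjusted p = 0.999), PDF1.2B by -0.88 ± 1.11 (adjusted p = 0.999) and PDF1.4 by -1.02 ± 0.45 (adjusted p = 0.904). The call of PDF2.1 in A. petraea roots thus exists in the text order alone, and so does that of PDF1.4 in A. halleri leaves.

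**Figure D3:**
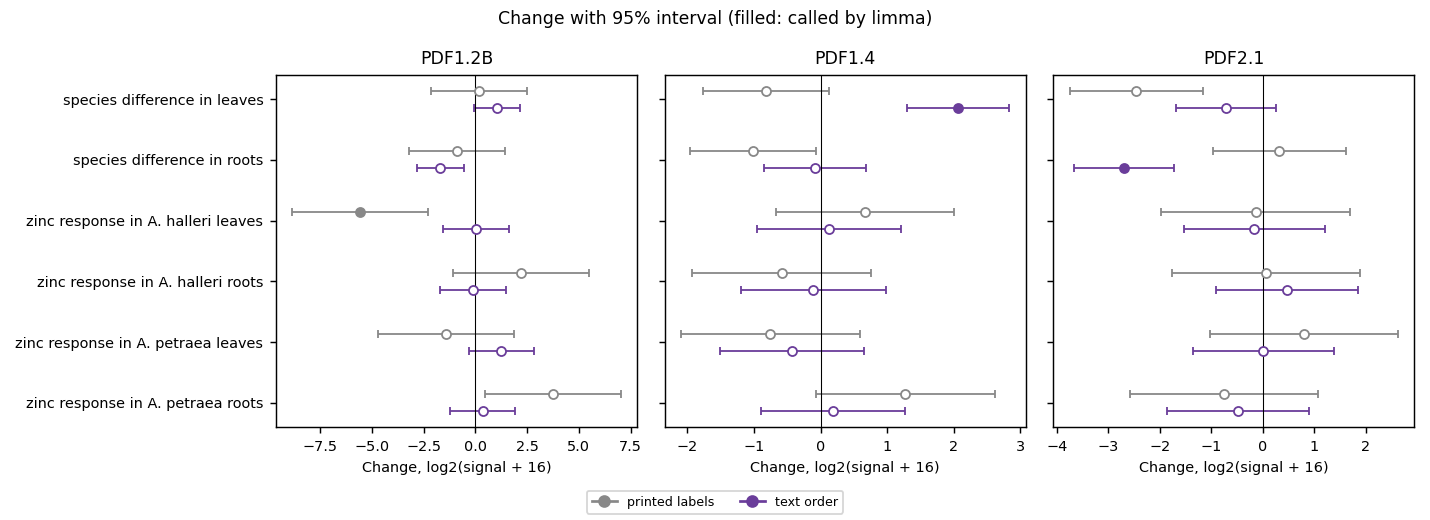
Change of each defensin on the log2(signal + 16) scale with its 95% interval in 6 comparisons (species differences are A. halleri minus A. petraea, zinc responses high zinc minus control), under the printed labels (grey) and the text order (purple); filled points were called by limma. The filled points are PDF1.4 in leaves at 2.07 and PDF2.1 in roots at -2.69 in the text order, and PDF1.2B in A. halleri leaves at -5.56 as printed.

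Whether the species difference itself differed between organs was tested with a comparison added after the data were seen. In the text order the difference in leaves minus that in roots was 2.16 ± 0.52 for PDF1.4 (limma adjusted p = 0.0669), 2.75 ± 0.76 for PDF1.2B (adjusted p = 0.13) and 1.98 ± 0.66 for PDF2.1 (adjusted p = 0.231). None was called, where 0.567% of probe sets were. Without arrays 5 and 24 the values in the same order were 2.35 ± 0.56, 2.01 ± 0.67 and 2.41 ± 0.66, with limma adjusted p of 0.0517, 0.233 and 0.111. Some settings did call them. PDF1.4 passed with the replicate block (adjusted p = 0.0303) and without array 2, 16, 17 or 24 (adjusted p = 0.0076 to 0.047), and its adjusted p ranged from 0.0076 to 0.126 over the settings. With array weights PDF1.2B (2.67, adjusted p = 0.0144) and PDF2.1 (2.42, adjusted p = 0.0158) passed, where their adjusted p otherwise reached 0.233 and 0.61. Whether the species difference differs between organs thus depends on the setting for all 3 members. As printed the values were 0.20 ± 0.64, 1.04 ± 1.57 and -2.78 ± 0.88, with adjusted p of 0.975, 0.94 and 0.555, and 0% of probe sets were called. PDF2.1 as printed passed with array weights (-3.34, adjusted p = 0.0273) and without array 19 (-3.48, adjusted p = 0.0319), where the range over all settings was 0.0273 to 1.

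Added zinc moved no defensin past the test in the text order. Of 17107 probe sets, limma called 0% in A. halleri leaves, A. halleri roots and A. petraea roots and 0.00585% in A. petraea leaves, with 96, 317, 430 and 463 at an unadjusted p under 0.05. These counts are lower than that threshold alone would give without any response. The main fit did not pair arrays of the same number, which lay close together, as given below. The absence of a call therefore does not show the absence of a zinc response. For PDF1.2B the response was 0.02 in A. halleri leaves, -0.11 in A. halleri roots, 1.26 in A. petraea leaves and 0.35 in A. petraea roots, each ± 0.76. The A. petraea leaf interval ran from -0.32 to 2.84, and the A. halleri leaf interval from -1.56 to 1.61. Without arrays 5 and 24 the PDF1.2B response in A. petraea leaves was 0.54 ± 0.71. For PDF1.4 the response was 0.12, -0.11, -0.43 and 0.19 in the same order, each ± 0.52. In A. petraea leaves all 3 high zinc arrays of PDF1.4 lay below all 3 control arrays, as in 4.81% of probe sets, but the adjusted p was 0.999. For PDF2.1 the response was -0.17, 0.47, 0.01 and -0.48, each ± 0.66. The difference between the species in the zinc response was not called for any member or any probe set in either organ (0%, with 260 in leaves and 358 in roots at an unadjusted p under 0.05). In leaves it was -1.24 ± 1.08 for PDF1.2B, 0.55 ± 0.74 for PDF1.4 and -0.18 ± 0.93 for PDF2.1. In roots it was -0.46 ± 1.08, -0.29 ± 0.74 and 0.96 ± 0.93.

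Under the printed labels 1 zinc response of a defensin was called. PDF1.2B was at 7426.7, 2166.3 and 2146.2 on the arrays printed A. halleri control leaves and at 35.1, 92.9 and 43.6 on those printed A. halleri high zinc leaves. The groups did not overlap, as with lower high zinc for 15.5% of probe sets, and the change was -5.56 ± 1.57 (limma adjusted p = 0.0262), where 17.4% of probe sets were called in either direction and 6.28% were called lower. In the 6 fits without 1 array the change was about as large, -5.89 to -4.97, but each missed the threshold, with adjusted p of 0.0553 to 0.0887. The call held in 6 of 6 other settings, among them the replicate block (adjusted p = 0.0356) and array weights (adjusted p = 2.81e-05). The organ markers moved with it: the 4 leaf markers were all lower, 2 of them called, and the 3 root markers all higher, 1 of them called. The summed leaf signal was 7852.3 to 8886.4 on the control arrays and 214.2 to 316 on the high zinc arrays, and the summed root signal 92.8 to 101.7 and 502.1 to 2354.6. None of the markers was at 0. The part of the organ in this result was not tested, since in these groups it cannot be told apart from zinc. PDF1.4 changed by 0.67 ± 0.64 (adjusted p = 0.474) in the same comparison, with groups that did not overlap as in 31.8% of probe sets, and PDF2.1 by -0.14 ± 0.88 (adjusted p = 0.922).

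The other printed zinc responses were not called for any of the 3 members. In A. halleri roots, where 0.0701% of probe sets were called, PDF1.2B changed by 2.21 ± 1.57 (adjusted p = 0.611), PDF1.4 by -0.59 ± 0.64 and PDF2.1 by 0.06 ± 0.88. In A. petraea roots, where 0% were called with 1189 at an unadjusted p under 0.05, PDF1.2B changed by 3.75 ± 1.57 (adjusted p = 0.658, but 0.00657 with array weights) and PDF1.4 by 1.27 ± 0.64 (adjusted p = 0.658). PDF2.1 changed there by -0.75 ± 0.88, with groups that did not overlap as in 5.37% of probe sets. In A. petraea leaves, with 0% called and 659 at an unadjusted p under 0.05, the changes were -1.41 ± 1.57, -0.75 ± 0.64 and 0.80 ± 0.88. The difference of leaf minus root markers changed by 4.46 in the A. halleri root comparison and 4.36 in the A. petraea root comparison, and its part in these values was not tested. The difference between the species in the zinc response of leaves was called for 0.357% of probe sets and that of roots for 0%, with 492 at an unadjusted p under 0.05. No defensin was among the calls, the largest value being -4.16 ± 2.22 for PDF1.2B in leaves (adjusted p = 0.345). With array weights that value was -4.91 ± 1.45 and passed (adjusted p = 0.0251), where the range over all settings was 0.0251 to 0.599.

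Arrays with the same number lay close together in the text order. The most correlated array had the same species, organ and number but the other zinc level for 19 of 24 arrays, against 4 as printed. For PDF1.4 in A. halleri leaves the control and high zinc values were 167.3 and 235.7 for number 1, 667.1 and 342.2 for number 2, and 57.8 and 116.6 for number 3. Number 2 was the highest and number 3 the lowest at both zinc levels. For PDF2.1 in A. petraea roots they were 327 and 674.1, 270.5 and 96, and 99.7 and 37.7, with number 1 highest and number 3 lowest at both. What a number stands for is not given in the labels. The species comparisons of the main fit took same-numbered arrays as independent. No fit left out both zinc levels of a number in 1 species and organ.

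**Figure D4:**
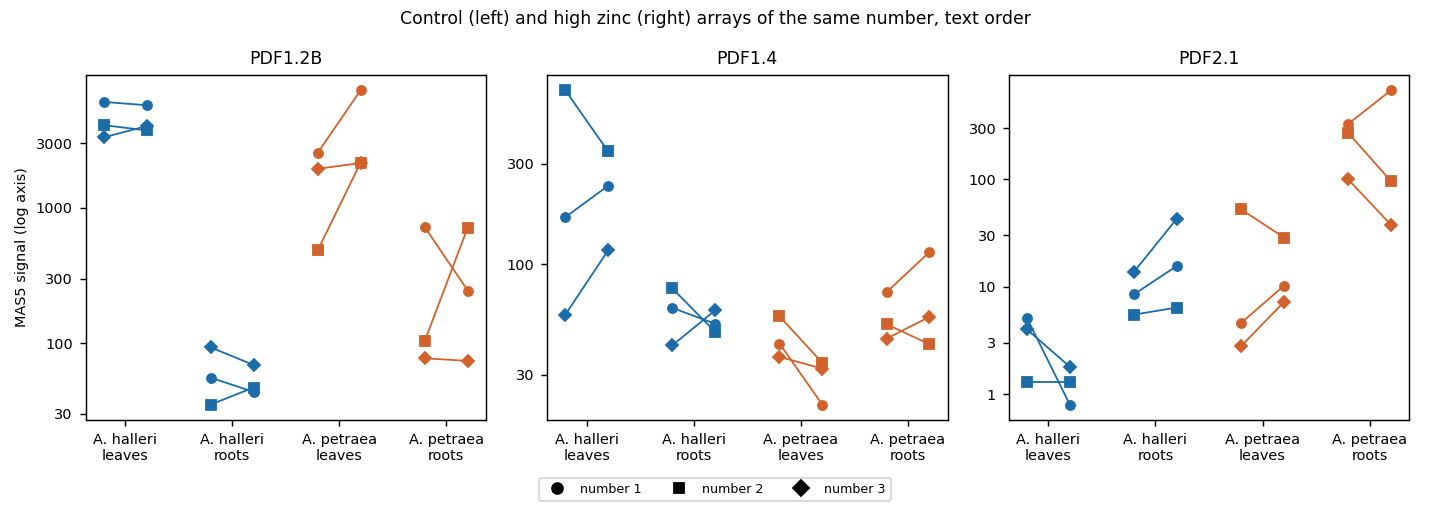
Signal of each defensin (log axis) on the control array (left) and the high zinc array (right) of the same number, joined by a line, for each species and organ in the text order; the marker shape gives the number. The lines of PDF1.4 in A. halleri leaves keep the order of the numbers, from 57.8 and 116.6 for number 3 to 667.1 and 342.2 for number 2.

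Of 20 other defensin names looked for, the annotation named 7 and 3 passed the filter on low signals: PDF2.5, LCR68 (also called PDF2.3) and LCR69 (also called PDF2.2). Some of the 20 names are synonyms of others on the list, so 7 of 20 is not a share of genes. None of the 3 was called in any comparison under either grouping. In the text order their median species difference was -0.19 in leaves and 0.04 in roots, against -0.01 and 0.08 over all probe sets tested. Of the species differences, that of LCR69 in leaves in the text order had the lowest adjusted p. Its lowest, median and highest signals in leaves were 185, 469.35 and 1260.2 in A. halleri and 1261.6, 1380.05 and 2247.6 in A. petraea. The species did not overlap, as with A. halleri lower for 2.38% of probe sets, and differed by -1.60 ± 0.52 (limma adjusted p = 0.0784). In roots LCR69 differed by -1.19 ± 0.52 (adjusted p = 0.203), with overlapping arrays. As printed its values were -0.45 ± 0.60 in leaves and 0.79 ± 0.60 in roots. PDF2.5 differed by -0.19 ± 0.36 in leaves and 0.04 ± 0.36 in roots, and LCR68 by -0.11 ± 0.40 and 0.13 ± 0.40. The lowest adjusted p of the 3 over all comparisons was that of PDF2.5 with zinc in A. halleri leaves as printed, 0.0649, with a change of 1.62 ± 0.60. Its signals ran from 13.8 to 24.1 on the control arrays and from 44.1 to 149.2 on the high zinc arrays, the groups whose organ markers differ as given for PDF1.2B.

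The genes around these defensins could hardly be read on this annotation. None of 21 jasmonate genes looked for was named. Of 16 ethylene genes only EIN3, the transcription factor of ethylene signalling, was named, and of 13 other antimicrobial and pathogenesis-related genes only the thionins THI2.1 and THI2.2, of which THI2.2 fell below the filter. EIN3 differed between the species by 0.12 ± 0.24 in leaves and 0.33 ± 0.24 in roots in the text order (adjusted p = 0.851 and 0.47). THI2.1, an antimicrobial peptide gene, differed by -0.39 ± 0.24 and 0.24 ± 0.24 (adjusted p = 0.411 and 0.631). As printed, EIN3 differed by 0.06 ± 0.24 and 0.17 ± 0.24 and THI2.1 by 0.18 ± 0.27 and 0.14 ± 0.27, with no call.

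The genes most like each defensin over the 24 arrays were taken by Pearson correlation of log2 values among probe sets with 1 gene name, with no test. For PDF1.2B they were PETG (0.96), PSBN (0.95), ATPH (0.95), AT3G21670 (0.94) and AT1G62780 (0.94), where PETG, PSBN and ATPH are plastid-encoded genes of the photosynthetic membrane. For PDF1.4 they were AT1G52540 (0.87), AT1G18850 (0.85), SUFE2 (0.85), AT4G33666 (0.82) and TBL37 (0.79). Since these were picked for their likeness to PDF1.4, their species differences in leaves are a description: in the text order they were all positive, from 0.74 ± 0.19 for AT1G52540 to 2.95 ± 0.34 for AT4G33666. As printed they were all negative, from -1.13 ± 0.58 for SUFE2 to -0.185 ± 0.24 for AT1G18850. For PDF2.1 they were AT5G10820 (0.89), AT3G59480 (0.85), AT1G02360 (0.85), AT5G25450 (0.84) and AT5G48175 (0.84). Their root differences in the text order were all negative, from -1.56 ± 0.31 for AT3G59480 to -0.86 ± 0.21 for AT5G10820. As printed their root differences ran from -0.10 ± 0.48 for AT1G02360 to 0.83 ± 0.55 for AT3G59480.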

How the data were processed

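Per the submitters' processing notes the deposited intensity values are linear MAS5 signals, 1 per probe set and array, with settings that no label records. With 2% trimmed at either end, array means were 100.0045 to 100.0107, so a common scaling had been applied. Median signals ranged from 43.0 to 71.5, and no pair of arrays was identical (r = 0.43 to 0.95).

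Signals were taken as log2(signal + 16). Probe sets in the lowest 25% by mean were left out, which kept 17107 of 22810. limma 3.58.1 in R 4.3.3 fitted 8 group means to 24 arrays with 16 residual degrees of freedom (eBayes with trend and robust settings), once per grouping, with Benjamini-Hochberg adjustment over all probe sets and calls at an adjusted p under 0.05. The code was tested on simulated data. The annotation gave 1 gene to 13513 probe sets, several to 503 and none here to 8794.

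The members, gene lists, markers and text order were chosen with earlier results of these data known. Named genes are the 3 members, listed defensins, called list members and the 5 genes most correlated with each member. A. halleri control roots print number 1 on 2 arrays, and the later serial number is called replicate 3. Same-numbered leaf arrays deviated together in the text order (r = 0.17 to 0.81 for each of 12 pairs), a check on values and not a stated pairing. Root arrays did not at every number (r = -0.06 to 0.61). Alternatives were the pseudocount, the filter, quantile normalization, array weights, a replicate block and leaving out arrays.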

Additional observations from a re-analysis of the deposited data

How the results depend on the processing

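PDF1.4 in leaves and PDF2.1 in roots, both in the text order, kept direction and call in every setting run, with adjusted p of 5.06e-05 to 0.00529 and of 1.5e-05 to 0.00676. The difference of PDF1.2B in roots in the text order passed with quantile normalization (-1.79), array weights (-1.59) and the replicate block (-1.69), and ran from -2.07 to -1.22 over the fits without 1 array. It did not pass without arrays 5 and 24 (-1.31). As printed, PDF2.1 in leaves passed with array weights (-3.04) and ran from -3.16 to -2.03 without 1 array. PDF1.2B as printed turned to -0.0715 in leaves with quantile normalization, and without 1 array ran from -0.47 to 0.77 in leaves and from -1.82 to 0.18 in roots. PDF1.4 in roots in the text order ran from -0.21 to 0.0789 without 1 array.

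The text order called 1664 probe sets in leaves and 1454 in roots with the replicate block, against 1065 and 811, and 2442 and 2898 with array weights. Without 1 array it called 491 to 763 in roots, the lowest without array 10. As printed, array weights called 96 in leaves and 7 in roots, leaving out arrays 5 and 24 called 1 and 5, and leaving out 1 array called 0 to 3 in either organ.

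The other reversals were of changes that were not called. With array weights these were 0.13 for PDF1.2B in A. halleri roots and -0.55 for PDF1.4 in A. halleri leaves with zinc in the text order, -0.24 for the species difference in the leaf zinc response of PDF1.4 in the text order, and, as printed, -0.0185 and -0.10 for PDF2.1 with zinc in A. halleri roots and A. petraea leaves. With a pseudocount of 64 PDF2.1 in A. petraea leaves with zinc became -0.0415 in the text order. Without arrays 5 and 24 the zinc response became -0.40 for PDF1.2B in A. petraea roots in the text order and -0.54 for PDF2.1 in A. halleri roots as printed, and the species difference in the root zinc response of PDF1.2B 0.29 in the text order. Without 1 array, PDF1.2B in the text order ran from -0.17 to 0.26 with zinc in A. halleri leaves, -0.37 to 0.18 in A. halleri roots and -0.40 to 1.28 in A. petraea roots. PDF1.4 in the text order ran from -0.63 to 0.98 with zinc in A. halleri leaves, -0.30 to 0.0509 in A. halleri roots and -0.15 to 0.44 in A. petraea roots. PDF2.1 with zinc ran from -0.32 to 0.61 in A. petraea leaves and -1.54 to 0.31 in A. petraea roots in the text order. As printed it ran from -0.33 to 0.14 in A. halleri leaves, -0.54 to 0.51 in A. halleri roots and -0.59 to 1.56 in A. petraea leaves. The species difference in the root zinc response of PDF1.2B ran from -3.67 to 0.34 as printed and -1.39 to 0.29 in the text order. That of PDF1.4 in the text order ran from -0.20 to 1.4049 in leaves and -0.54 to 0.0427 in roots. That of PDF2.1 in leaves ran from -1.70 to 0.45 as printed and -0.78 to 0.16 in the text order. The species difference in leaves minus roots, as printed, ran from -0.0202 to 1.99 for PDF1.2B and -0.19 to 0.61 for PDF1.4.

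The cause of these changes was not tested. The replicate block changed no call of a defensin in a planned comparison other than that of PDF1.2B in roots, and in the added comparison of leaves minus roots it made PDF1.4 (2.16) pass in the text order. Array weights made 5 further changes pass: as printed, PDF1.2B with zinc in A. petraea roots (5.43), its species difference in the leaf zinc response (-4.91) and PDF2.1 in leaves minus roots (-3.34), and in the text order PDF1.2B (2.67) and PDF2.1 (2.42) in leaves minus roots. Signals near 0 limit PDF2.1, whose size moves with the pseudocount.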

Other observations

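Defensin probe sets below the filter on low signals were not tested, and their signals are given as values. The probe set named PDF1.2 was at 0.7 to 21.1 over the 24 arrays, LCR66 (also called PDF2.4) at 2.8 to 43 and LCR72 at 5.8 to 44.3. LCR67, also called PDF1.1, was at 1.7 to 67.3. In the text order its lowest, median and highest signals in roots were 11.8, 21.95 and 57.6 in A. halleri and 1.7, 5.5 and 16.6 in A. petraea. In leaves they were 1.7, 17.9 and 67.3 in A. halleri and 2.2, 7.65 and 22.8 in A. petraea, so that the species overlapped in both organs. PDF2.5 lay higher in roots than in leaves by its medians in both species in the text order, at 82 and 17.4 in A. halleri and at 69.85 and 17.65 in A. petraea. Its A. halleri root arrays reached down to 8.1, and the organs overlapped in both species.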
